A study of Drosophila melanogaster with 16 samples.

Results

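The Bearded family is a group of small Drosophila proteins encoded in the Brd and Enhancer of split (E(spl)) gene complexes, and 7 of its genes are described here: Brd, Tom, Ocho, E(spl)malpha-BFM, E(spl)m2-BFM, E(spl)m4-BFM and E(spl)m6-BFM. They were chosen by name, with earlier results of these data known, among 11304 genes named on the array. The identifiers of 8 array probe sets map to them. A probe set is the array's group of probes for 1 transcript. All 7 genes were above the floor of measurement in all 16 arrays and were tested. Ocho has 2 probe sets and the others have 1.

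Bearded family proteins bind Neuralized, the E3 ubiquitin ligase that drives endocytosis of the Notch ligand Delta, and so restrain signal sending between neighbouring cells. Notch activity, acting through the DNA-binding factor Su(H), together with proneural factors turns on most of these genes in the cell clusters from which neural precursors are chosen. In the E(spl) complex they lie interleaved with the genes for bHLH repressors, the classical Notch targets that keep cells from a neural fate.

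RNA of whole Drosophila melanogaster embryos at stages 10 to 17 was measured on 16 single-colour arrays in 4 groups. Untreated Oregon-R wild type had 5 arrays and heat-shocked wild type had 3. The hsp-otd line 5A, in which a heat shock promoter drives the fly head gene orthodenticle (otd, now oc), had 4, and the hsp-Otx2 line, which carries its human relative Otx2 in the same manner, had 4. The last 3 groups were collected for 12 h, aged for 4 h, kept at 37 °C for 25 min and left to recover at 25 °C for 25 min. The labels give no collection, ageing or heat shock for untreated wild type, so heat shock and any difference in age between the wild-type groups cannot be told apart. A heat shock promoter acts throughout the embryo, and each transgene is represented by 1 line, so effects of the transgene and of the line cannot be told apart. Nothing in the labels says whether the arrays of a group came from separate collections of embryos, and the p-values cover array-to-array spread alone, which may be technical. Both wild-type groups serve as controls in several comparisons, which are therefore not independent of each other.

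Levels are normalized intensities, on a linear scale and in arbitrary units, and group means are geometric. A gene passed, or was called, at a Benjamini-Hochberg adjusted p below 0.05 in limma, adjusted over the 12301 probe sets tested. Deposited array means ran from 460.2 to 1016.4. All 3 heat-shocked wild type arrays had a mean under 700, as did 3 of untreated wild type and 2 of hsp-Otx2, and all 4 hsp-otd arrays lay over it. The scaling between arrays therefore matters for calls over the whole array. The share of called probe sets that were higher in hsp-otd than in heat-shocked wild type was 53.8% after quantile normalization, 71.5% after median scaling and 92.8% without normalization. For hsp-Otx2 over heat-shocked wild type that share was 47.1%, 62.6% and 86.4%, and for hsp-otd over untreated wild type it was 53.0%, 64.8% and 76.1%. In the other 3 comparisons it moved by over 10 points without normalization, to 14.7% from 45.8% between the wild-type groups, to 71.0% from 53.3% for hsp-otd over hsp-Otx2, and to 58.4% from 46.4% for hsp-Otx2 over untreated wild type. The targeted gene oc lay between 6213 and 6448 in the hsp-otd arrays, and its highest value in any other array was 235. No probe set for human Otx2 was identified, so that transgene was not checked.

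In heat-shocked wild type, most Bearded family transcripts were lower than in untreated wild type. In hsp-otd embryos after the same heat shock most were higher than in heat-shocked wild type, and in hsp-Otx2 embryos all but 1 were lower. Of the 7 genes, 5 were called lower in heat-shocked than in untreated wild type, while 12.2% of all tested probe sets were. In hsp-otd over heat-shocked wild type 5 were called higher, where 15.8% of all tested probe sets were, and in hsp-Otx2 over heat-shocked wild type 6 were called lower, where 19.7% were. Because the members were chosen with earlier results of these data known, these counts describe them and are no test of the family. The mean of the members' log2 levels, each centred on its own mean, was 0.62 to 1.00 in untreated wild type, 0.48 to 0.56 in hsp-otd, -0.27 to -0.14 in heat-shocked wild type and -1.53 to -1.31 in hsp-Otx2. The range of no group met that of another. In whole-embryo RNA, fewer expressing cells and less RNA per cell cannot be told apart.

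**Figure D1:**
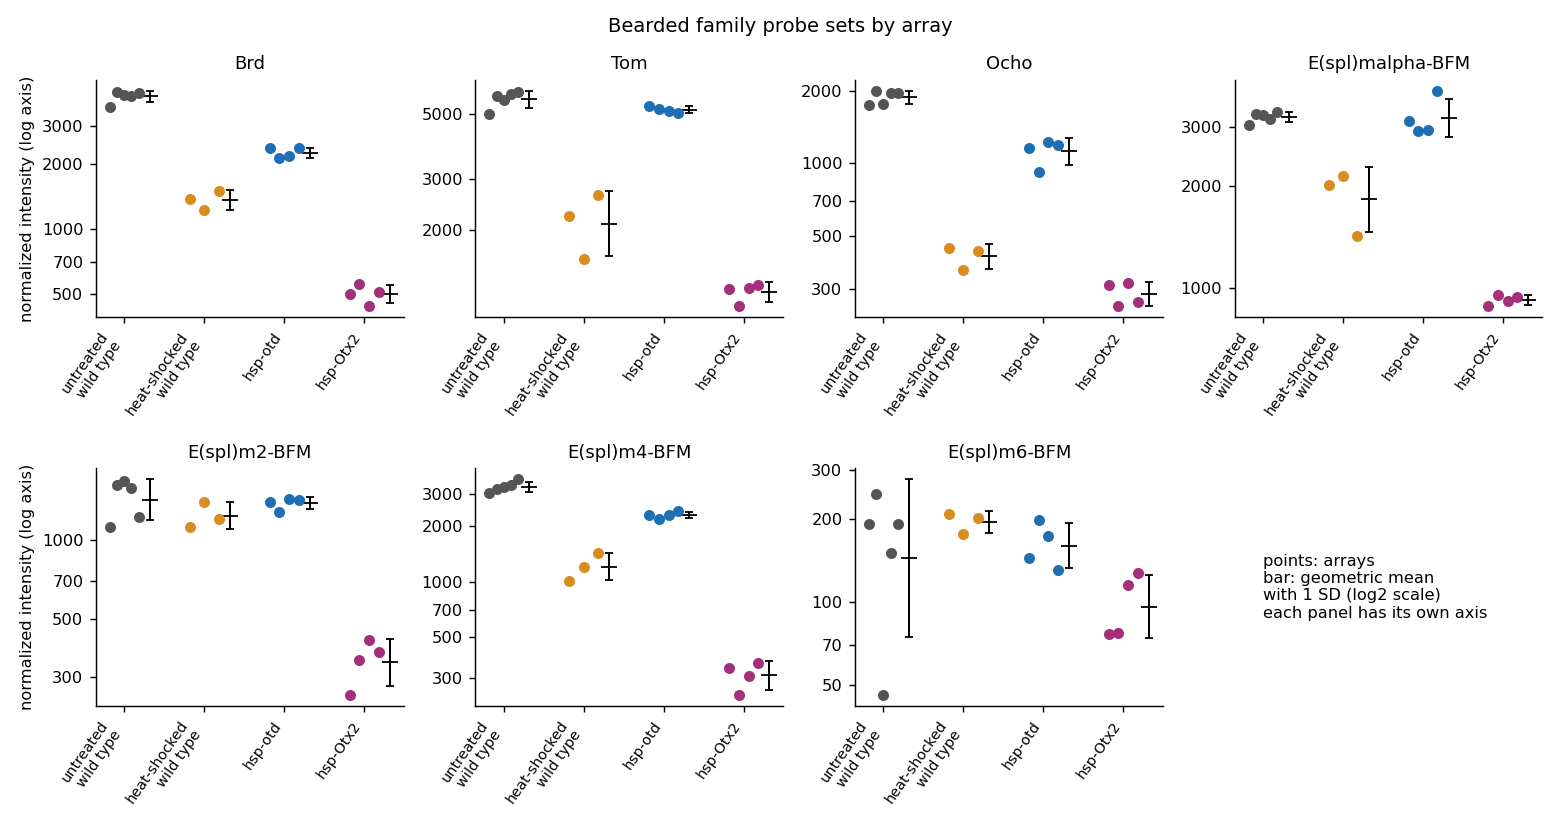
Normalized intensity (log axis, arbitrary units) of each Bearded family gene in every array, by group; points are arrays and the bar is the geometric mean with 1 SD. In every panel but that of E(spl)m6-BFM the hsp-Otx2 arrays lie below all others, and how many other probe sets do so was not counted.

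Among the Brd complex genes, Bearded (Brd) itself gave the family its name through dominant alleles that produce tufts of extra bristles. Its level was 3701, 4342, 4201, 4155 and 4263 in the untreated wild type arrays and 1379, 1220 and 1502 in heat-shocked wild type. In hsp-otd it was 2382, 2136, 2175 and 2371, and in hsp-Otx2 it was 498, 553, 437 and 510. All 4 groups were separate, with untreated wild type highest, hsp-otd next, then heat-shocked wild type and hsp-Otx2 lowest. Brd was 3.03-fold lower in heat-shocked than in untreated wild type (log2 change -1.60, SE 0.09, adjusted p = 1.58e-09). It was 1.66-fold higher in hsp-otd than in heat-shocked wild type (log2 change 0.73, SE 0.09, adjusted p = 3.67e-05) and 2.74-fold lower in hsp-Otx2 (log2 change -1.45, SE 0.09, adjusted p = 1.07e-08). Every neighbouring pair in that order differed beyond the spread of the arrays.

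Tom (Twin of m4) blocks Neuralized when it is overexpressed. It measured 5004, 5787, 5584, 5852 and 5986 in untreated wild type and 2231, 1588 and 2641 in heat-shocked wild type. In hsp-otd it measured 5336, 5231, 5141 and 5036, and in hsp-Otx2 1259, 1094, 1264 and 1297. The hsp-otd arrays lay inside the range of untreated wild type, and both stood apart from the other groups. The difference between hsp-otd and untreated wild type was -0.12 on the log2 scale (95% interval -0.35 to 0.11, adjusted p = 0.459), so no difference was shown. Tom was 2.67-fold lower in heat-shocked than in untreated wild type (adjusted p = 2.33e-07), 2.46-fold higher in hsp-otd than in heat-shocked wild type (adjusted p = 1.82e-06) and 1.72-fold lower in hsp-Otx2 (adjusted p = 0.000129).

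Ocho, the remaining Brd complex member described, had the largest change of the 7 genes between the wild-type groups. Its brighter probe set read 1745, 2004, 1758, 1958 and 1952 in untreated wild type and 446, 359 and 432 in heat-shocked wild type. The hsp-otd arrays read 1155, 923, 1231 and 1196, and the hsp-Otx2 arrays 311, 254, 317 and 265. All 4 groups were separate, although the lowest heat-shocked wild type array was not far above the highest hsp-Otx2 array. The level was 4.58-fold lower in heat-shocked than in untreated wild type (log2 change -2.19, SE 0.12), 2.73-fold higher in hsp-otd (log2 change 1.45, SE 0.13) and 1.44-fold lower in hsp-Otx2 (log2 change -0.53, SE 0.13, adjusted p = 0.00397). The last call ended under median scaling (log2 change -0.41, adjusted p = 0.0544) and without normalization (-0.09, adjusted p = 0.914).

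The other Ocho probe set did not follow the first. It read 531 to 829 in untreated wild type, 427 to 682 in heat-shocked wild type, 560.4 to 606 in hsp-otd and 334 to 495 in hsp-Otx2. Its log2 change between the wild-type groups was -0.32 (95% interval -0.71 to 0.08), and that of hsp-otd over heat-shocked wild type was 0.11 (95% interval -0.30 to 0.52). It passed only where hsp-Otx2 was set against hsp-otd (log2 change 0.52 for hsp-otd over hsp-Otx2, adjusted p = 0.0365) or against untreated wild type (log2 change -0.73, adjusted p = 0.00241). What separates the probe sets was not tested.

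E(spl)malpha-BFM and E(spl)m4-BFM, members in the E(spl) complex, reduce Notch signalling when they are overexpressed. E(spl)m4-BFM measured 3009, 3191, 3255, 3330.4 and 3594 in untreated wild type and 1016, 1209.8 and 1434 in heat-shocked wild type. It measured 2289, 2201, 2310 and 2422 in hsp-otd and 339.6, 243, 307 and 365 in hsp-Otx2. The groups did not overlap and fell in the same order as those of Brd. E(spl)m4-BFM was 2.71-fold lower in heat-shocked than in untreated wild type (log2 change -1.44, SE 0.12, adjusted p = 3.24e-07). It was 1.91-fold higher in hsp-otd than in heat-shocked wild type (adjusted p = 7.52e-05) and 3.89-fold lower in hsp-Otx2 (log2 change -1.96, SE 0.13, adjusted p = 1.28e-08).

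E(spl)malpha-BFM measured 3031, 3279.5, 3251, 3178 and 3330.4 in untreated wild type and 2019.5, 2147 and 1422 in heat-shocked wild type. It measured 3117, 2925, 2936 and 3848 in hsp-otd and 881, 955, 916 and 937 in hsp-Otx2. Like those of Tom, its hsp-otd values overlapped those of untreated wild type, and the log2 difference of -0.01 had a 95% interval of -0.24 to 0.21. Heat-shocked wild type was 1.75-fold below untreated wild type (adjusted p = 8.45e-05), and hsp-otd was 1.74-fold above heat-shocked wild type (adjusted p = 0.000166). The hsp-Otx2 level was 1.99-fold below heat-shocked wild type (adjusted p = 9.23e-06).

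E(spl)m2-BFM, also in the E(spl) complex, was low in hsp-Otx2 alone. It measured 1118, 1611, 1670.2, 1567 and 1224 in untreated wild type and 1115, 1396 and 1203 in heat-shocked wild type. It measured 1395, 1274, 1425 and 1421 in hsp-otd and 257, 349.8, 415 and 375 in hsp-Otx2. The first 3 groups overlapped, and every hsp-Otx2 array was below every other array. The level in hsp-Otx2 was 3.59-fold below heat-shocked wild type (log2 change -1.84, SE 0.16, adjusted p = 3e-07). No difference was shown between the wild-type groups (log2 change -0.20, 95% interval -0.54 to 0.13) or between hsp-otd and heat-shocked wild type (0.16, 95% interval -0.19 to 0.51). The last one passed under median scaling (0.47, adjusted p = 0.047) and without normalization (1.06, adjusted p = 0.0303), where the median of all probe sets was itself at 0.15 and 0.68.

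For E(spl)m6-BFM, read close to the floor in 1 array, no comparison passed. It measured 191, 246, 46.1, 150.1 and 191 in untreated wild type and 209, 176 and 201 in heat-shocked wild type. It measured 144, 198, 174 and 131 in hsp-otd and 76.8, 77.6, 115 and 127 in hsp-Otx2. The hsp-Otx2 arrays were below those of the other heat-shocked groups, while the third untreated array was below all of them. The log2 change of hsp-Otx2 over heat-shocked wild type was -1.01 (SE 0.47, 95% interval -2.02 to -0.01, adjusted p = 0.106). It passed when only those groups were fitted (adjusted p = 0.0448), and hsp-Otx2 over untreated wild type passed without the third untreated array (-0.99, adjusted p = 0.0126). The identifier of this probe set also matches a gene named M6 and an older name of jar, each of which has a probe set of its own, so its identity is not settled. Apart from the calls just given for this gene, leaving it out makes the counts of called members ones of 6 genes and does not change them.

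**Figure D2:**
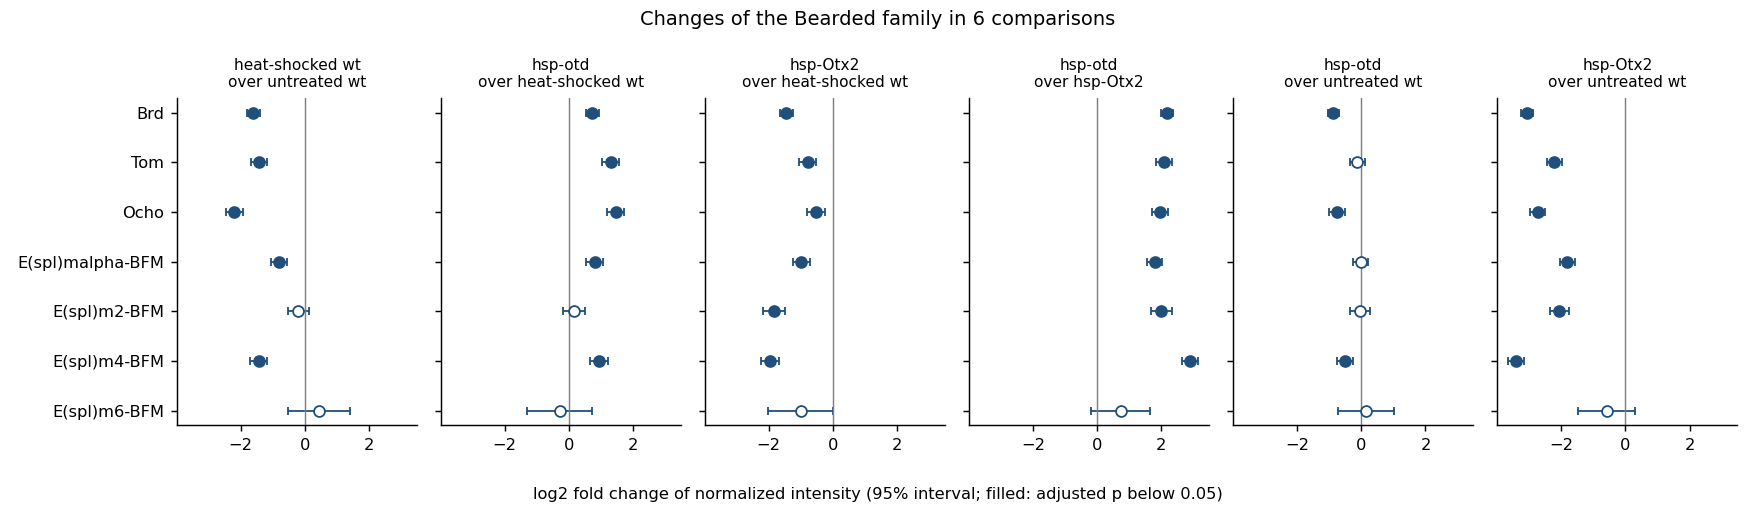
Log2 fold change of normalized intensity for each member (rows) in the 6 comparisons (panels), with 95% intervals; filled points passed at an adjusted p below 0.05, and wt is wild type. In hsp-otd over hsp-Otx2 the 6 genes other than E(spl)m6-BFM lie between 1.79 and 2.89.

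Over the family, the median log2 change in heat-shocked over untreated wild type was -1.42, beside 0.01 over all tested probe sets. The 3 Brd complex genes, all called lower, had a median of -1.60, and the 4 E(spl) complex genes, of which 2 were called, a median of -0.51. Among the latter E(spl)m6-BFM, of unsettled identity, was at 0.44 and the others at -0.81, -0.20 and -1.44. In the same comparison all 7 heat shock response genes were higher, beside 1269 of 12301 tested probe sets. Among them Hsp68 was at least 836-fold higher in heat-shocked wild type and not above the floor in untreated wild type. All 10 genes of the late epidermis and cuticle list were lower (median -6.02), beside 12.2% of all tested probe sets. Their summed level per array was 48000 to 49174 in untreated wild type and 5682 to 8220 in heat-shocked wild type. The part of these lists in the members' change was not tested. All arrays with a mean under 700, 6 of wild type and 2 of hsp-Otx2, were also fitted together. In that fit the same 5 members were called, and Brd, Ocho and E(spl)m4-BFM had log2 changes of -1.57, -2.09 and -1.37.

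In hsp-otd over heat-shocked wild type the members' median log2 change was 0.80, beside 0.00 over all tested probe sets. The called genes ranged from 0.73 for Brd to 1.45 for Ocho, with a median of 1.30 over the 3 Brd complex genes and 0.48 over the 4 E(spl) complex genes. Among the latter E(spl)m6-BFM, of unsettled identity, was at -0.29 and the others at 0.80, 0.16 and 0.93. Late epidermis and cuticle genes were also higher in 7 of 10 cases and lower in 1, beside 15.8% higher and 1667 of 12301 lower over all tested probe sets. Their sums were 9280 to 10243 against 5682 to 8220, and their part in the members' change was not tested. Every hsp-otd array was brighter as deposited than every heat-shocked wild type array, so no fit within arrays of like brightness could be made for this comparison. Set against untreated wild type, 3 of 7 members were called lower in hsp-otd, where 13.9% of all tested probe sets were. These were Brd (log2 change -0.87, adjusted p = 6.79e-07), Ocho (-0.75, adjusted p = 8.54e-05) and E(spl)m4-BFM (-0.51, adjusted p = 0.0031). Without normalization none of the 3 passed, with log2 changes of -0.48, -0.34 and -0.09. Each was nevertheless below the median of all probe sets, which stood at 0.28 in that setting.

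In hsp-Otx2 over heat-shocked wild type the members' median log2 change was -1.01, or -1.22 without E(spl)m6-BFM, beside -0.13 over all tested probe sets. It was -0.78 over the 3 Brd complex genes and -1.43 over the 4 E(spl) complex genes. Among the latter E(spl)m6-BFM was at -1.01 and the others at -0.99, -1.84 and -1.96. Without normalization 3 members passed, Brd (-0.87), E(spl)m2-BFM (-1.29) and E(spl)m4-BFM (-1.43), and the median of all probe sets stood at 0.29. Tom, Ocho and E(spl)malpha-BFM did not pass there, at -0.15, -0.09 and -0.35, which is -0.44, -0.38 and -0.64 relative to that median. In the fit of all arrays with a mean under 700, 5 members were called, without E(spl)m6-BFM and Ocho (-0.54, adjusted p = 0.0773). That fit holds 5 arrays of these groups and 3 of untreated wild type. Of the late epidermis and cuticle genes 6 of 10 were higher and 2 lower in hsp-Otx2 than in heat-shocked wild type, beside 17.5% and 19.7% of all tested probe sets. Their median log2 change was 1.71, with overlapping sums of 6891 to 8417 and 5682 to 8220. Set against untreated wild type, 6 of 7 members were called lower, where 21.4% of all tested probe sets were, from E(spl)malpha-BFM at 3.48-fold to E(spl)m4-BFM at 10.5-fold.

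The transgenic lines were also set directly against each other. In hsp-otd over hsp-Otx2 6 of 7 members were called higher, while 15.7% of all tested probe sets were called higher. The median log2 change was 2.00, beside 0.02 over all tested probe sets. E(spl)m4-BFM was 7.43-fold higher in hsp-otd (log2 change 2.89, SE 0.12, adjusted p = 5.67e-11), Brd 4.55-fold and Tom 4.23-fold. E(spl)m2-BFM, which did not differ between hsp-otd and heat-shocked wild type beyond the spread, was 4.01-fold higher (adjusted p = 4.05e-08). All arrays with a mean over 700, 6 of these lines and 2 of untreated wild type, were also fitted together. That fit gave the same 6 calls, with log2 changes of 1.80 for E(spl)malpha-BFM to 2.83 for E(spl)m4-BFM.

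Markers of other tissues moved between the lines as well. The summed level of 9 neuroblast and sensory precursor genes per array was 4895 to 5398 in hsp-Otx2 and 7561 to 9754 over the other groups. The brightest of them, cpo, weighs most in this sum. Its means were 4821 in heat-shocked wild type, 2582 in hsp-otd and 2452 in hsp-Otx2, so its level was not particular to hsp-Otx2. In hsp-Otx2 over heat-shocked wild type 3 of these 9 genes were lower and none was higher, beside 19.7% and 17.5% of all tested probe sets. Their median log2 change was -0.53. In hsp-otd over hsp-Otx2 5 of the 9 were higher and none was lower, beside 15.7% higher and 1695 of 12301 lower over all tested probe sets. In hsp-otd over heat-shocked wild type 1 of the 9 was higher and 1 lower, beside 15.8% higher and 1667 of 12301 lower. The higher one, mira, whose product carries fate determinants in dividing neuroblasts, had a log2 change of 2.00 (adjusted p = 3.77e-05). Its value in hsp-Otx2 over heat-shocked wild type was 0.11 (adjusted p = 0.778). The lower one, cpo, had log2 changes of -0.90 in hsp-otd (adjusted p = 1.92e-05) and -0.98 in hsp-Otx2 (adjusted p = 3.44e-06). Of 8 female germ line and maternal genes 6 were higher in hsp-Otx2 than in heat-shocked wild type, beside 17.5% of all tested probe sets. The sums of the 8 were 2633 to 2866 against 1091 to 1577. In hsp-otd 3 of the 8 were higher and 1 lower than in heat-shocked wild type, with sums of 1913 to 2197. In hsp-otd over hsp-Otx2 4 of the 8 were lower and none was higher. Of the 8, osk and exu were above the floor in all 4 hsp-Otx2 arrays, at means of 131 and 243, and in no array of another group. Others were not particular to hsp-Otx2. Means in hsp-otd and hsp-Otx2 were 251 and 222 for vas, and 1204 and 1179 for stau. Sums of the 7 neuron genes ran from 2778 to 3049 in hsp-Otx2 and from 2662 to 4166 in the other groups, and those of the 7 mesoderm and muscle genes overlapped in all 4. Act57B and Mlc2, with group means of at least 19177 and 15730, weigh most in the latter. Of 6 tested mesoderm and muscle genes 3 were lower in hsp-otd than in heat-shocked wild type and none was higher. In hsp-Otx2 1 was lower and none was higher. For 10 blastoderm genes the sums were 8701 to 12112 in heat-shocked wild type, 5755 to 6488 in hsp-otd, all lower, and 5347 to 8838 in hsp-Otx2, which overlapped. Most of each sum is bcd, with means of 5528, 3427 and 5435 in these groups. Of 9 blastoderm genes tested 3 were lower in hsp-otd and 4 in hsp-Otx2 than in heat-shocked wild type, and none was higher. The part of these lists in the members' changes was not tested.

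**Figure D3:**
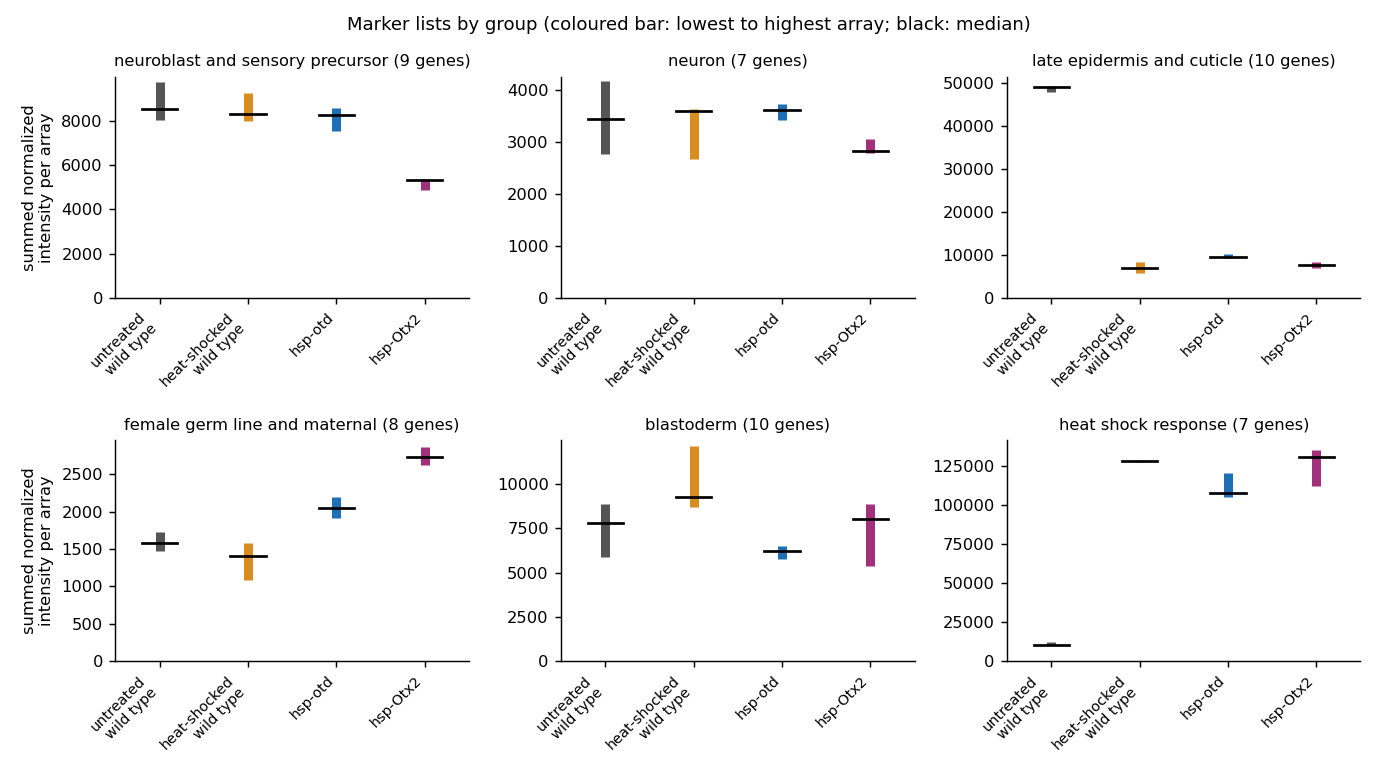
Summed normalized intensity per array (linear axis from 0, arbitrary units) of 6 marker lists by group; coloured bars span the lowest to the highest array and black bars are medians. Cuticle genes are highest in untreated wild type, neuroblast genes are lowest in hsp-Otx2, and germ line and maternal genes are highest there.

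In the E(spl) complex the bHLH repressor genes interleaved with the members moved with them. Of 7 such genes, 6 were lower in heat-shocked than in untreated wild type, 5 were higher in hsp-otd than in heat-shocked wild type, and 5 were lower in hsp-Otx2. All 7 were higher in hsp-otd than in hsp-Otx2, with a median log2 change of 2.19. Of all tested probe sets 12.2%, 15.8%, 19.7% and 15.7% were called in these directions, in the same order. Among them E(spl)m8-HLH rests on a probe set named E(spl), an older name that also belongs to E(spl)m2-BFM, E(spl)m7-HLH and E(spl)mbeta-HLH. In the first 3 of these comparisons its log2 changes were -0.45, -0.04 and -1.77, and only the last passed.

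E(spl)m5-HLH showed the widest range. It was not above the floor in any heat-shocked wild type array and had a mean of 742 in untreated wild type. It was thus at least 37.1-fold lower in heat-shocked than in untreated wild type (adjusted p = 6.6e-08). With a mean of 360 in hsp-otd it was at least 18.0-fold higher there than in heat-shocked wild type (adjusted p = 2.57e-06). One hsp-Otx2 array was above the floor, at 22. E(spl)mdelta-HLH had a mean of 244 in untreated wild type and 254 in hsp-otd, and it was above the floor in 2 of 3 heat-shocked wild type and 2 of 4 hsp-Otx2 arrays.

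E(spl)mgamma-HLH was close in its values to the Brd complex members, with log2 changes of -1.46, 1.20 and -0.98 in the first 3 comparisons (heat-shocked over untreated wild type, then each transgenic line over heat-shocked wild type). E(spl)m7-HLH had log2 changes of -0.65, 0.38 and -1.81. For E(spl)m3-HLH they were -1.53, 1.61 and -1.46. E(spl)mbeta-HLH changed least between the wild-type groups (-0.23, adjusted p = 0.0204), did not pass in hsp-otd (0.15, adjusted p = 0.128) and was lower in hsp-Otx2 (-0.91, adjusted p = 5.97e-08).

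Other residents of the complexes differed in direction. BobA, a Bearded family gene next to Tom that is not among the 7, had log2 changes of -1.93, 1.61 and -1.11 in the first 3 comparisons, all called. CG13465, the gene beyond BobA, named here after its values were seen, had log2 changes of -1.45, 1.04 and -1.43, all called. Kaz-m1 lies between E(spl)malpha-BFM and E(spl)m2-BFM and encodes a protein with a Kazal-type protease inhibitor domain. It was slightly higher in heat-shocked than in untreated wild type (log2 change 0.33, adjusted p = 0.0346), and its value in hsp-otd over heat-shocked wild type was -0.11 (adjusted p = 0.477). In hsp-Otx2 it was lower than in heat-shocked wild type (log2 change -0.62, adjusted p = 0.000353). At the end of the complex lies gro, which encodes the co-repressor of the bHLH proteins. It was higher in hsp-Otx2 than in heat-shocked wild type, at 3198 against 1224 (log2 change 1.38, SE 0.09, adjusted p = 1.33e-08), where all called members were lower. BobB and BobC were not analysed here.

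**Figure D4:**
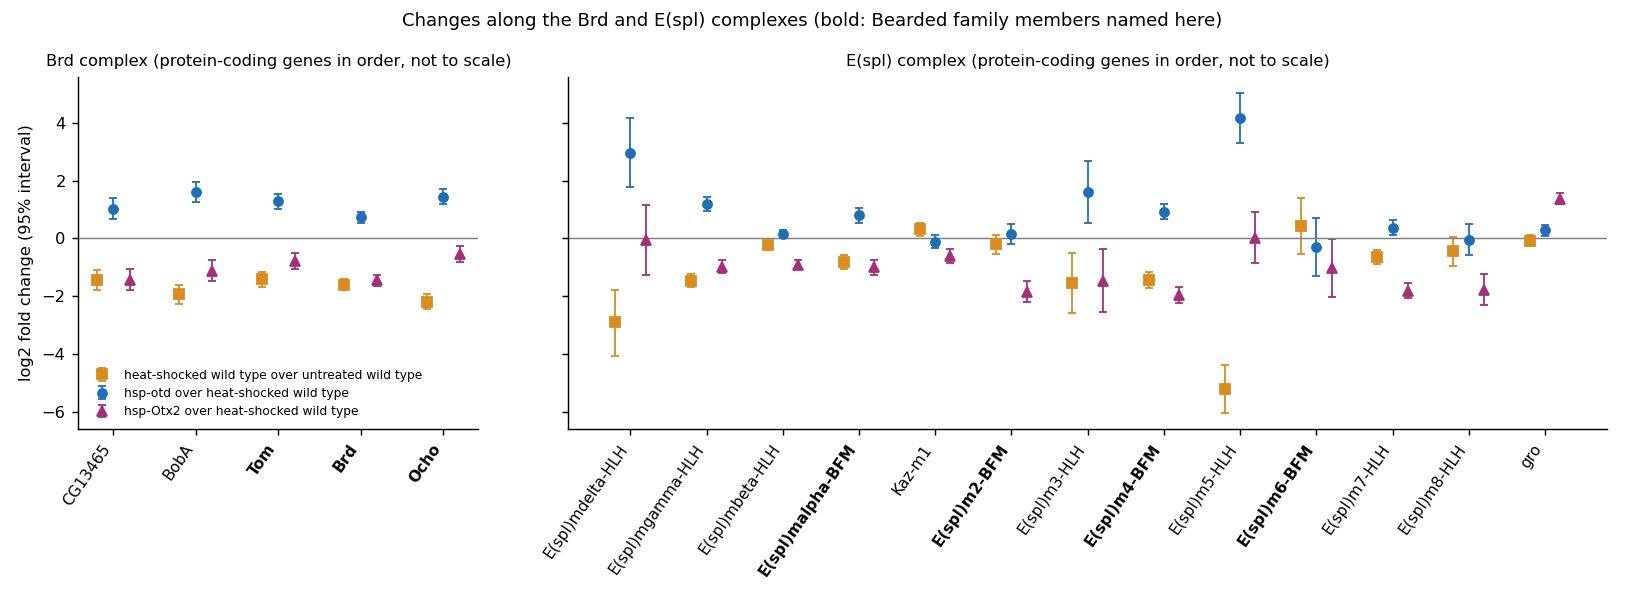
Log2 fold change with 95% interval in 3 comparisons for the protein-coding genes in their order along both complexes; members are in bold. E(spl)m8-HLH stands for the probe set named E(spl), and the identity of E(spl)m6-BFM is not settled; the purple value of gro is at 1.38, above 0, while those of the Brd complex are all below 0.

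Upstream of the members, the receptor, ligand and processing list had 11 of 13 genes with a value. In heat-shocked over untreated wild type 2 were lower, in hsp-otd over heat-shocked wild type 4 were higher, and in hsp-Otx2 over heat-shocked wild type 4 were higher and 1 was lower. Over all tested probe sets 12.2% were lower in the first of these, 15.8% higher in the second, and 17.5% higher and 19.7% lower in the third. Notch itself (N), named after its values were seen, did not pass in any of these, with log2 changes of 0.03, 0.13 and -0.17. The gene of the Bearded family's own partner Neuralized, neur, also named afterwards, was not above the floor in any wild-type array and did not pass in any comparison. Genes that rose in hsp-Otx2 were O-fut1, which adds fucose to the receptor (1.81, adjusted p = 1.29e-06), and the gamma-secretase genes Nct (2.96, adjusted p = 5.34e-06), aph-1 (1.17, adjusted p = 3.38e-05) and Psn (0.52, adjusted p = 0.000285). In hsp-otd the first 3 of these also rose, by 1.37, 1.86 and 0.70.

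Among 4 nuclear factors with a value, Su(H) was higher than in heat-shocked wild type both in hsp-otd (2.81, adjusted p = 0.0114) and in hsp-Otx2 (3.22, adjusted p = 0.00326). It was above the floor in 2 of 3 heat-shocked wild type arrays, so these values depend on the floor. The co-activator gene mam was lower in both, with means of 442 and 358 against 882 in heat-shocked wild type (adjusted p = 0.00799 and 0.000743), and the co-repressor gene CtBP was higher by 0.31 and 0.43. The fourth, gro, is given above.

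Proneural genes drive the choice of neural precursors. Of 9 genes in that list, 1 was lower in heat-shocked than in untreated wild type, 1 was higher in hsp-otd and 3 were lower in hsp-Otx2 than in heat-shocked wild type, beside 12.2%, 15.8% and 19.7% of all tested probe sets. The gene called in all 3 was l(1)sc, with log2 changes of -1.26, 0.54 and -0.59 and the same order of groups as Brd. In hsp-Otx2 da, the common partner of the proneural proteins, was also lower (-1.37, adjusted p = 0.00203). So was ato, at the floor in all 4 hsp-Otx2 arrays and above it in 2 of 3 heat-shocked wild type arrays (adjusted p = 0.0478). For ase the 3 values were -2.45, 0.47 and 2.72, none of which passed.

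**Figure D5:**
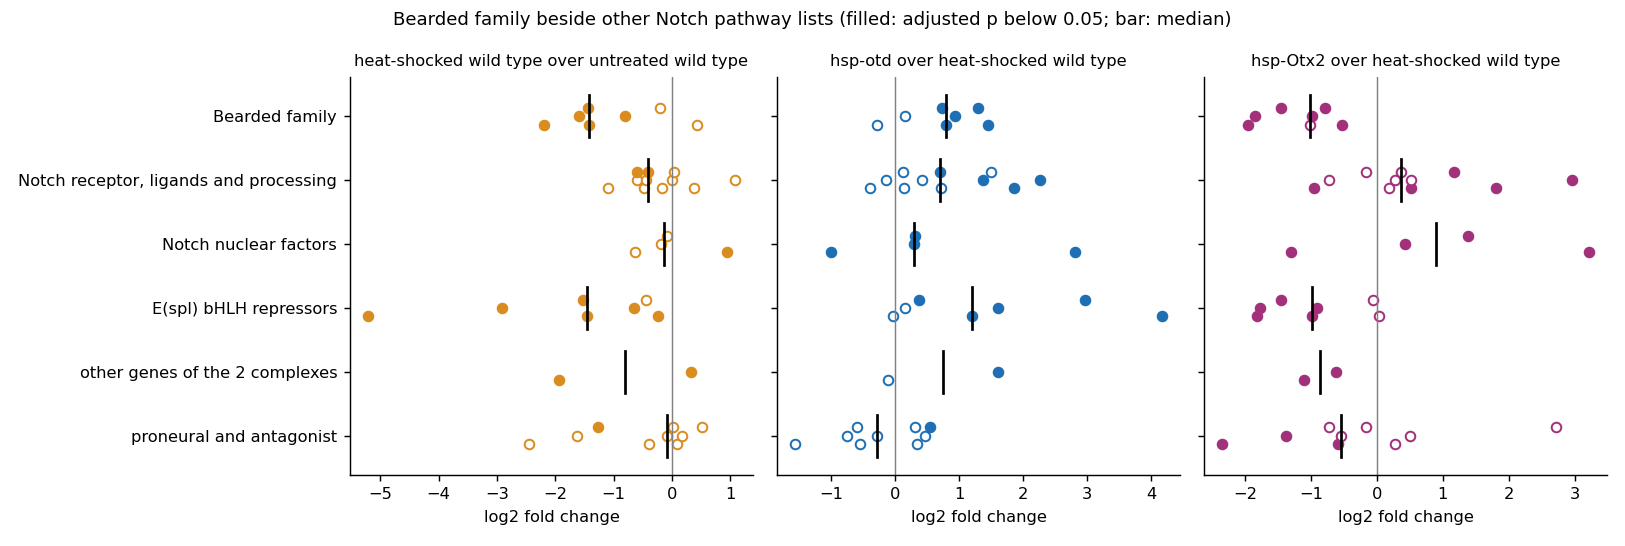
Log2 fold change of the genes of each list (rows) in 3 comparisons (panels); filled points passed at an adjusted p below 0.05 and black bars are medians. The Bearded family and the bHLH repressors have medians of -1.42 and -1.46, 0.80 and 1.20, and -1.01 and -0.98. Without E(spl)m6-BFM those of the family are -1.43, 0.86 and -1.22. In the last panel E(spl)m5-HLH and E(spl)mdelta-HLH lie at or near the floor in both groups.

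Genes other than the 7 members were ranked by Pearson correlation with the members' mean profile over the 16 arrays. The ranking held 4358 genes above the floor in every array. Genes known only by a CG or CR number, such as CG13465, were left out of it. The highest of the ranked genes were E2f2 (r = 0.985), ppl (0.98), E(spl)mgamma-HLH (0.979), phu (0.978) and Rpt5 (0.977), and BobA came eighth (0.975). E2f2 encodes an E2F transcription factor, ppl a protein of the glycine cleavage system and Rpt5 a subunit of the proteasome. These values describe the differences between the 4 groups more than those within them, since with group means removed r was 0.652 for E2f2, 0.585 for ppl, 0.099 for E(spl)mgamma-HLH, 0.35 for phu and 0.484 for Rpt5. The size of change differed too, for Rpt5 had a log2 change of 0.70 in hsp-otd over hsp-Otx2 while E(spl)mgamma-HLH had 2.18.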

How the data were processed

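The authors deposited 1 table of linear intensities for all arrays. Its image reading and scaling are not given in the sources used here, and 18.3% to 24.6% of an array's values were negative. Genes were named by matching probe-set identifiers to a RefSeq table (Release 6 plus ISO1 MT): 13077 of 14038 probe sets had 1 symbol, 470 several and 491 none. Delta, Hairless, pen-2, BobB and BobC had no usable identifier and were not analysed here. The 32 control probe sets were removed. Intensities were quantile normalized, values under 20 were set to that floor, and log2 was taken. Those probe sets that exceeded the floor in 3 or more arrays, 12301 in all, entered limma 3.58.1 (R 4.3.3), with 1 coefficient per group, all 16 arrays, eBayes with a trend, 12 residual and a median of 4.1 prior degrees of freedom, and Benjamini-Hochberg adjustment. The model was tested on simulated data. A gene's probe set of highest mean was used. All members, all bHLH repressors, up to 4 genes of each other pathway list by smallest adjusted p in the first 3 comparisons, and the 5 genes of most similar profile are named, while single marker genes were picked after their values were seen. A gene at the floor in a whole group has a fold of "at least". Arrays have no depth, so their number limits the precision, and no 2 arrays were identical. Members and lists were chosen with earlier results of these data known. Alternatives were other scalings, a floor of 50, no filter, only the compared groups, a replicate block, each array left out, and, chosen after seeing the data, the other Ocho probe set and arrays split at a mean of 700.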

Additional observations from a re-analysis of the deposited data

Results flagged for a closer look

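Of 24 sets of values examined for a sample far from the rest, 1 stood out: Brd in the first untreated wild type array, at 11.85 on the log2 scale, lay below the other 4 by 0.724 of the group's range. Chance alone marks about 1 in 20 such sets. Left out, this array changed no call of the family.

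The transgenic lines differed from each other, tested directly, in 6 of the 7 genes, with the same heat-shocked wild type arrays as the control of both. On the log2 scale, hsp-otd over hsp-Otx2 was 2.18 for Brd, 2.08 for Tom, 1.97 for Ocho, 1.79 for E(spl)malpha-BFM, 2.00 for E(spl)m2-BFM and 2.89 for E(spl)m4-BFM. No hsp-otd array overlapped an hsp-Otx2 array in any of them, nor in E(spl)m6-BFM, which was not called. Of all tested probe sets 15.7% were called higher in hsp-otd, and how many did not overlap was not counted.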

How the results depend on the processing

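Of 630 refitted log2 fold changes of the members, which leave out Ocho's other probe set, 616 kept their direction where called and their side of the threshold, 9 lost the call, 5 gained it and 0 reversed. Without normalization the members called fell to 3 for hsp-Otx2 over heat-shocked wild type and to 0 for hsp-otd over untreated wild type, in limma, where 0 also had an unadjusted p under 0.05. The median of all probe sets moved in that setting to -0.36, 0.68, 0.29, 0.26, 0.28 and -0.08 (order: between the wild-type groups, hsp-otd and then hsp-Otx2 over heat-shocked wild type, hsp-otd over hsp-Otx2, hsp-otd and then hsp-Otx2 over untreated wild type). Median scaling gave 6 calls for hsp-otd over heat-shocked wild type, 5 for hsp-Otx2 and 2 for hsp-otd over untreated wild type, without E(spl)m4-BFM (-0.31, adjusted p = 0.105). Under it the all-probe-set median was 0.15 for hsp-otd over heat-shocked wild type. With Ocho's other probe set the calls were 4, 4, 5, 6, 2 and 6 in the same order. Among arrays over a mean of 700, Tom also passed for hsp-otd over untreated wild type (-0.19, adjusted p = 0.0135), giving 4. Leaving out single arrays gave 5 to 5, 5 to 5, 6 to 6, 6 to 6, 3 to 3 and 6 to 7 calls.

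With the replicate block the counts of calls were 5, 5, 6, 6, 3 and 6, and no call changed. No sign was seen that replicate numbers pair the arrays, although low correlations cannot exclude it. Deviations from group means correlated at -0.071 to 0.115 over 21 same-numbered pairs, and at -0.142 to 0.117 over the others.

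E(spl)m6-BFM had its lowest array at 46.1 against a floor of 20, and its SE of 0.42 to 0.47 limits what could be called.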
